A study of Mus musculus with 2 samples.

Results

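The genes described here encode the proteins of the cytoplasmic ribosome of the mouse, with their paralogs. They were chosen by name: protein-coding genes of both gene tables whose GENCODE symbol begins with Rpl or Rps and a digit, or is Rplp0, Rplp1, Rplp2 or Rpsa, leaving out the kinases whose symbols begin with Rps6k and symbols containing -ps. The rule used no measured value. It found 86 of 21474 protein-coding genes, among 42462 gene rows matched to an annotation. Of the 86, 77 are canonical ribosomal protein genes, 46 of the large subunit (Rpl) and 31 of the small subunit (Rps), and 8 are paralogs of a canonical gene. The remaining gene, Rps19bp1, encodes a protein that binds Rps19 and is no part of the ribosome. Among the canonical genes, 19 are mouse counterparts of genes mutated in Diamond-Blackfan anemia, a human failure of red cell production.

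The cells were primary erythroblasts, precursors that still carry a nucleus, taken from male mice of the strain C57BL/6J that were adult, at an age of 5 to 6 weeks. Total RNA was sequenced in 2 libraries, with an input of 1 ng per library and added spike-ins, and the design holds no second condition. Both libraries are labelled biological replicates but carry the same donor entry, so the spread between them may be technical. Pairs of values below are those of replicate 1 and replicate 2 in that order, levels are TPM (transcript abundance corrected for length and scaled to a fixed total), and errors are SDs of n = 2 libraries. A single group allows no test of a condition, so p-values are absent.

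A cytoplasmic ribosome holds a small subunit, which reads the mRNA, and a large subunit, which joins amino acids. Each canonical protein is needed in about the same number per ribosome, and most vertebrate ribosomal protein mRNAs begin with a terminal oligopyrimidine tract, a C followed by a run of C and T bases at the 5′ end, through which their translation is controlled together. Erythroblasts make ribosomes and globin in large amounts before the nucleus is lost, and loss of 1 copy of a ribosomal protein gene in humans can stop red cell formation.

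The tract was looked for in RefSeq promoter sequences (GRCm38.p6, the same assembly as mm10), in which 66 of the 86 genes were matched. The motif was a C within 2 bases of the annotated start, on the strand of the gene, followed by at least 4 bases that are each C or T. It was present at an annotated start of 22 of the 66 genes (33.3%), against 10.6% of the 27025 genes in the table and 11.8% of the 2433 detected protein-coding genes outside the set. The windows below run from 10 bases before the start to 20 bases from it, with the tract in capitals. They are shown because they hold the feature that the family is known for, in a long form in Rpl15 of the large subunit and Rps18 of the small one, and then in the Rps27 family, which the paralog results turn on. The window of Rpl15 lies at chr14:18270967-18270996 on the minus strand, Rps18 at chr17:33955646-33955675 on the minus strand, Rps27 at chr3:90213629-90213658 on the minus strand, Rps27rt at chr9:114982720-114982749 on the minus strand and Rps27l at chr9:66946076-66946105 on the plus strand.
Rpl15: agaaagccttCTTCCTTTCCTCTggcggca
Rps18: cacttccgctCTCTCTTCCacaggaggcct
Rps27: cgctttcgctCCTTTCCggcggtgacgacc
Rps27rt: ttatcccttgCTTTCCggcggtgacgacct
Rps27l: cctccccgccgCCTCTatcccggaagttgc
The tract spans 13 bases in Rpl15, 9 in Rps18, 7 in Rps27, 6 in Rps27rt and 5 in Rps27l. A match describes the annotated start, and the libraries hold no measurement of where transcription began.

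Total depth was 80806663 and 117032607 expected counts, of which 5.44% and 5.82% fell in nuclear protein-coding genes. Mitochondrial ribosomal RNA held 78.3% and 78.5% of all TPM, so TPM values of cytoplasmic mRNAs are low throughout. All 12 listed erythroblast markers were detected, with medians of 132 and 140 TPM and sums of 21114 and 22843 TPM. All 10 listed neutrophil markers were detected too, with medians of 94.1 and 99.8 TPM and sums of 2046 and 2359 TPM. Of 8 monocyte and macrophage markers 7 were detected, with sums of 213 and 247 TPM. Of 5 B lineage markers 1 was detected, Ighm at 11.6 and 12.2 TPM, and the list summed to 12.1 and 13.1 TPM. Of 4 T and NK markers 1 was detected, Nkg7 at 5.07 and 6.45 TPM, while Cd3e had 1 and 0 counts and Cd3d and Cd8a had 0 counts in both replicates. In such bulk samples more cells of a type and more RNA per cell cannot be told apart, and the part of RNA from these other cell types in the ribosomal protein levels was not tested.

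Ribosomal protein genes were expressed as a set. A gene was called detected at 1 TPM or more in both replicates, and 81 of the 86 genes were (94.2%), against 14.6% of all protein-coding genes. All 77 canonical genes were detected, 71 of them at 10 TPM or more in both replicates, and 4 of the 8 paralogs were. The canonical genes had medians of 23.1 and 28.0 TPM, against 2.59 and 2.91 TPM over the 3133 detected protein-coding genes. All 86 genes summed to 1986 and 2384 TPM, which is 4.25% and 4.67% of what nuclear protein-coding genes held in TPM (4.46 ± 0.303%). Without the 4 adult globin genes in the total, the shares were 7.55% and 8.27%. In rounded expected counts, which are not corrected for length, the shares were 1.925% in replicate 1 (95% Wilson interval 1.912 to 1.938) and 2.112% in replicate 2 (2.101 to 2.123). The intervals cover counting error only.

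Canonical genes lay within a narrow range of levels. The SD of log2 TPM across them was 0.71 in replicate 1 and 0.85 in replicate 2, against 1.62 and 1.63 over all detected protein-coding genes. The ratio of the 90th to the 10th percentile was 2.95 and 3.34, against 12.7 in each replicate for detected protein-coding genes. Effective transcript length, the part of a transcript on which a fragment can start, was nearly unrelated to TPM among the 77 genes, with Spearman's rho of -0.07 and -0.11. Those genes share the same libraries and are not independent.

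**Figure D1:**
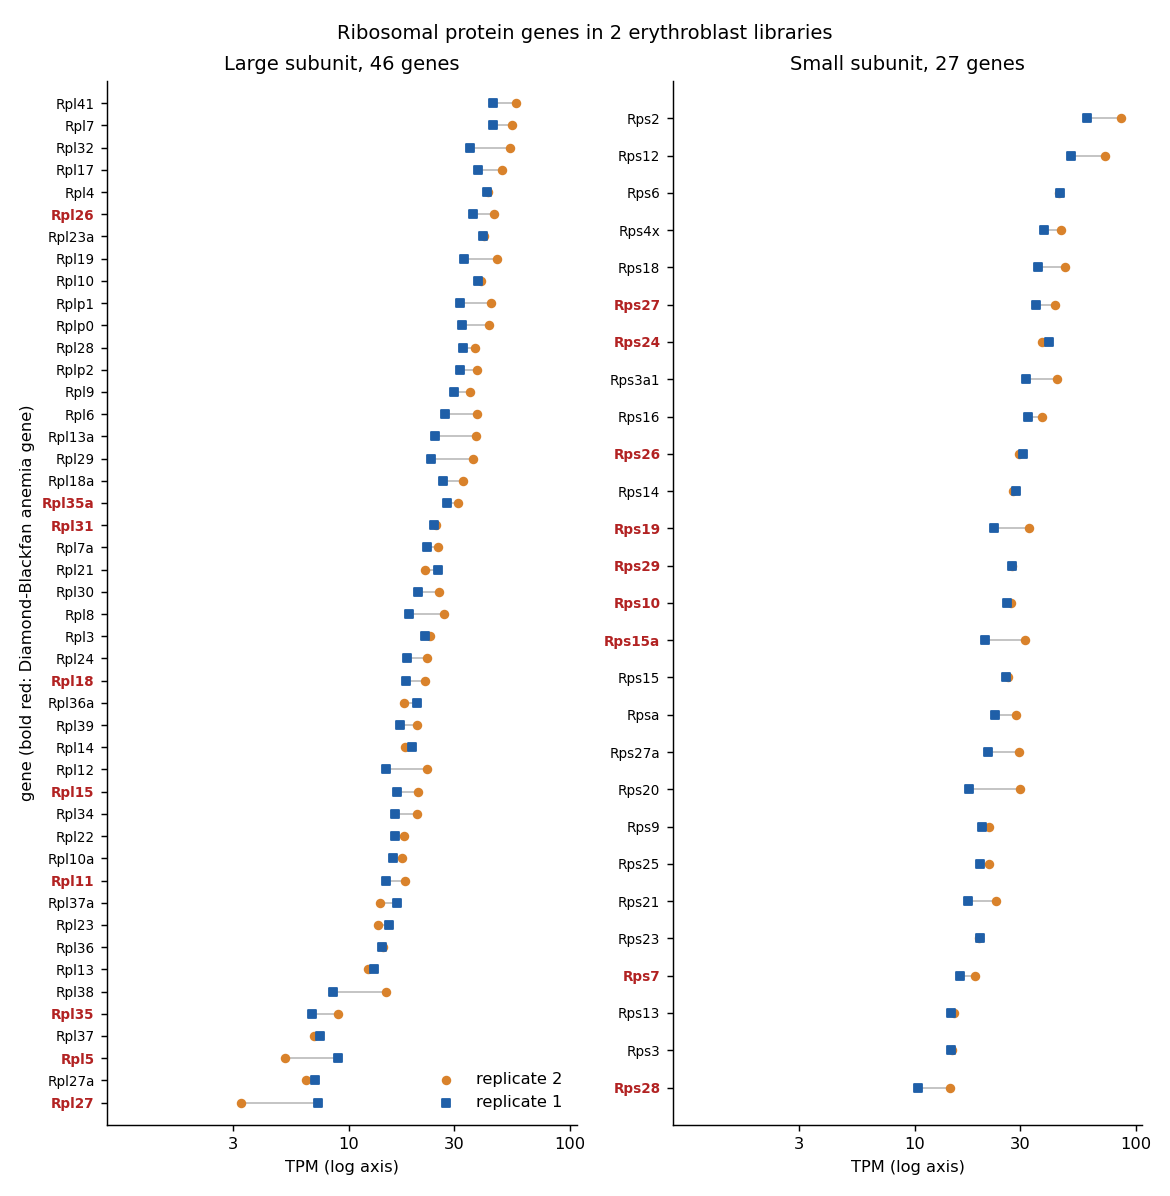
TPM on a log axis of the 46 large subunit and 27 of the 31 small subunit canonical genes, with a circle for replicate 2, a square for replicate 1 and a grey line joining them; bold red names are Diamond-Blackfan anemia genes. Most genes lie between 10 and 60 TPM, Rps2 is highest, and Rpl27, Rpl27a and Rpl5 are lowest.

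Large subunit genes had medians of 21.3 and 23.9 TPM, against 26.0 and 29.8 TPM for small subunit genes. The log2 ratio of the medians, large over small, was -0.30 ± 0.02, the same sign in both replicates. In expected counts, which carry no length correction, it was 0.05, so the direction holds per length only. With sequence-matched pseudogenes added to each gene, an alternative chosen after seeing the data, it was -0.09. Of the 46 large subunit genes 6 were under 10 TPM in at least 1 replicate, and of the 31 small subunit genes 0 were. Those 6 are Rpl5, Rpl27, Rpl27a, Rpl35, Rpl37 and Rpl38, and their pseudogenes are described below.

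Among small subunit genes Rps2, which lies near the mRNA entry channel, led at 60.02 and 85.5 TPM. Rps12 followed at 50.8 and 72.4 TPM. Both were higher by mean TPM than the other 75 canonical genes. Rps6, the substrate of the S6 kinases, stood at 45.2 and 45.1 TPM, Rps4x, the X-linked member, at 38.4 and 46.0 TPM, and Rps18 at 36.1 and 47.7 TPM. At the low end were Rps28 at 10.3 and 14.4 TPM, Rps3, part of the mRNA entry site, at 14.6 and 14.8 TPM, Rps13 at 14.5 and 15.1 TPM and Rps7 at 16.04 and 18.7 TPM. In expected counts, which carry no length correction, Rps3 was not low, at 1619 and 2745, against 1247 and 2495 for Rps12. The leading transcript of Rps3 is listed at 1908 bases. In TPM the leading pair was higher in replicate 2, while Rps6 and Rps3 were nearly level between the replicates. Rpsa, also known as the laminin receptor, stood at 23.1 and 28.6 TPM.

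In the large subunit Rpl41, which encodes a very short basic peptide, led at 44.8 and 57.1 TPM. Rpl7 stood at 44.7 and 54.7 TPM and Rpl32 at 35.3 and 53.7 TPM. Rpl17, which lies by the exit tunnel of the growing chain, stood at 38.3 and 49.2 TPM, Rpl4, which reaches into that tunnel, at 42.0 and 42.5 TPM, and Rpl26 at 36.3 and 45.4 TPM. The genes of the stalk, which recruits the elongation factors, stood close together: Rplp0 at 32.6 and 42.8 TPM, Rplp1 at 31.7 and 43.7 TPM and Rplp2 at 31.6 and 38.01 TPM. Their values overlapped across the replicates, so no order among the 3 stands out from the spread. The lowest large subunit genes were Rpl27 at 7.26 and 3.26 TPM, Rpl27a at 7.03 and 6.42 TPM, Rpl5 at 8.96 and 5.15 TPM and Rpl37 at 7.44 and 6.98 TPM. They were the lowest of all canonical genes as well.

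Genes of Diamond-Blackfan anemia had medians close to those of the other canonical genes in TPM over both subunits, and lower ones in the large subunit. The 19 genes had medians of 22.8 and 27.3 TPM, against 23.3 and 29.2 TPM for the other 58, a log2 ratio of -0.07 ± 0.05. Within the small subunit the 10 disease genes had medians of 26.7 and 30.5 TPM against 25.9 and 29.8 TPM for the other 21. Within the large subunit the 9 disease genes had medians of 16.5 and 20.6 TPM against 22.4 and 25.5 TPM for the other 37, a log2 ratio of -0.38 ± 0.10. In expected counts the ratio over both subunits was -0.49. With sequence-matched pseudogenes added to each gene, an alternative chosen after seeing the data, it was -0.01. The ratio within the large subunit was not computed in that way. Of its disease genes, adding copies took Rpl5 from a mean of 7.055 to 33.7 TPM and Rpl27 from 5.26 to 23.4 TPM. Rpl35 stayed low, at a mean of 7.875 TPM alone and 8.31 TPM with copies.

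Rps19 (chromosome 7, 24884371 to 24889806), the gene most often mutated in the human disease, stood at 22.7 and 33.0 TPM. The replicates differed by 1.45-fold, and the deposited TPM intervals, whose level is not given in the sources used here, did not overlap. Of the other small subunit genes of the disease, Rps27 stood at 35.5 and 43.2 TPM, Rps24 at 40.6 and 37.5 TPM and Rps26 at 31.0 and 29.6 TPM. Rps29 stood at 27.4 and 27.6 TPM, Rps10 at 26.1 and 27.3 TPM and Rps15a at 20.8 and 31.5 TPM, while Rps7 and Rps28 were among the low genes named above. Of these 10 genes, Rps24 and Rps26 were the 2 that were lower in replicate 2. The level of Rps29 is uncertain, since the pseudogene Gm14303 matched it at 100% over 171 bases and held 19.8 and 39.6 TPM. In expected counts Gm14303 held less, 64.9 and 147, against 504 and 700 for Rps29.

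Rpl5 and Rpl11 encode the proteins that join the 5S RNA before it enters the large subunit, and that bind Mdm2 when ribosome assembly fails. Rpl11 (chromosome 4, 136028265 to 136053428) stood at 14.7 and 17.99 TPM, and Rpl5 (chromosome 5, 107900502 to 107909005) was lower in both replicates and, unlike Rpl11, lower in replicate 2 than in replicate 1. Rpl26 was the highest large subunit gene of the disease. Rpl35a stood at 27.7 and 31.1 TPM, Rpl31 at 24.2 and 24.7 TPM, Rpl18 at 18.1 and 22.03 TPM and Rpl15 at 16.5 and 20.6 TPM. Rpl35, at 6.84 and 8.91 TPM, and Rpl27 joined Rpl5 at the low end, so 3 of the 9 genes were under 10 TPM in both replicates. A further 3 genes mutated in the human disease encode no ribosomal protein. Tsr2, a chaperone of Rps26, stood at 0.07 and 0.02 TPM and Heatr3, which carries Rpl5 to the nucleus in humans, at 0.35 and 0.26 TPM, both under the detection level. The erythroid transcription factor Gata1 stood at 2.25 and 4.09 TPM.

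Paralogs divided into expressed genes and genes without counts, and in TPM each of the 8 was below its canonical relative, which for Rps27rt rests on an uncertain split of reads. Rpl22l1, which rises in mice that lack Rpl22, stood at 9.79 and 11.5 TPM, against 16.2 and 17.7 TPM for Rpl22, a log2 ratio of -0.67 ± 0.07. Rpl36al stood at 9.91 and 11.1 TPM, against 20.4 and 17.7 TPM for Rpl36a, a log2 ratio of -0.85 ± 0.26. Rps27l stood at 4.88 and 6.48 TPM, against 35.5 and 43.2 TPM for Rps27, a log2 ratio of -2.78 ± 0.08. The ratios of these pairs were larger than their spread between the replicates, and the paralogs did not overlap with their relatives. Rpl7l1, the relative of a yeast assembly factor of the large subunit, stood at 0.70 and 0.98 TPM from 124 and 256 counts, against 44.7 and 54.7 TPM for Rpl7, a log2 ratio of -5.74 ± 0.10 with a pseudocount of 0.1 TPM. The binding protein gene Rps19bp1 was under the detection level as well, at 0.80 and 0.81 TPM.

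The 3 paralogs known from striated muscle or from the testis had 0 counts in both replicates. A count of 0 allows up to 3 counts per library, which for Rpl3l, the muscle paralog of Rpl3, is 0.0481 and 0.0332 TPM. On that floor Rpl3l was at least 458-fold lower than Rpl3 in replicate 1 and at least 698-fold lower in replicate 2. Rpl10l, which replaces Rpl10 in male germ cells, was at least 818-fold and 1213-fold lower than Rpl10. Rpl39l, another germ cell paralog, was at least 222-fold and 378-fold lower than Rpl39. These folds hold on the floor of 3 counts only. The deposited interval bounds reach higher for Rpl3l (0.1245 and 0.0869 TPM) and Rpl39l (0.1297 and 0.0910 TPM), which would give smaller folds.

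**Figure D2:**
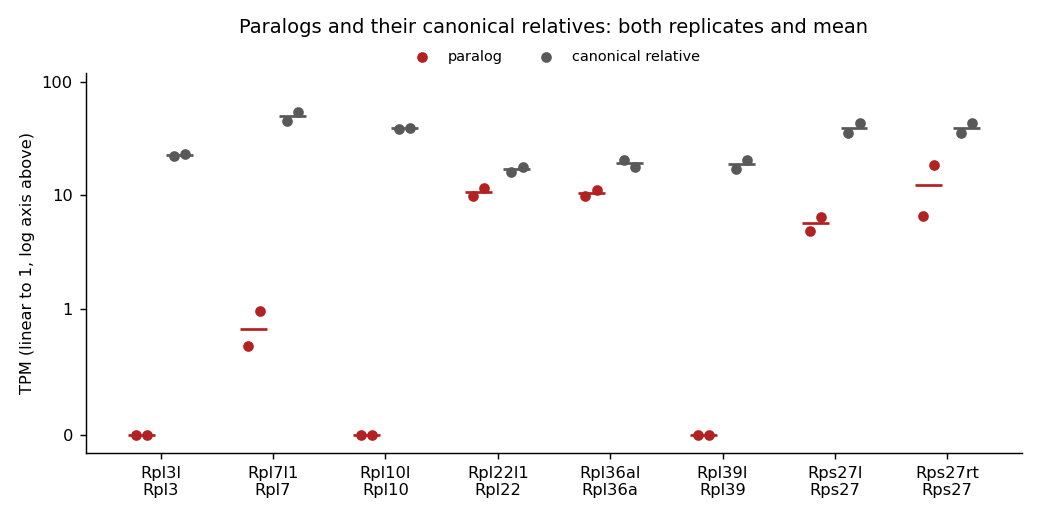
TPM of 8 paralogs (red, left of each pair) and their canonical relatives (grey), with 1 point per replicate and a bar at the mean; the axis is linear up to 1 TPM and logarithmic above. Rpl3l, Rpl10l and Rpl39l lie at 0, Rpl7l1 lies below 1 TPM, and the other 4 paralogs lie between 4.88 and 18.3 TPM, each below its relative.

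Paralogs differed in how far their reads could be told from those of the relative. Coding sequence identity to the relative was 62.6% for Rpl7l1, 70.8% for Rpl22l1, 74.8% for Rpl3l, 76.1% for Rps27l, 84.8% for Rpl10l, 85.3% for Rpl39l and 87.9% for Rpl36al. Rps27rt was identical to Rps27 at all 255 coding bases. The first 90 coding bases of the family, from the GENCODE M21 transcripts, are shown for that reason, with capitals in Rps27l where its base is not that of Rps27.
Rps27: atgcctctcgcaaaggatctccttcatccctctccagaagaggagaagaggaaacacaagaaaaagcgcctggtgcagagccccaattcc
Rps27rt: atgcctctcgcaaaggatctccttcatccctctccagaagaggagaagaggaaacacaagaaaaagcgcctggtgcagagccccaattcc
Rps27l: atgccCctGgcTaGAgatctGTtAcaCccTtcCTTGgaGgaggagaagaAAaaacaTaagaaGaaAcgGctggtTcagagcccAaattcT
Rps27l differed from Rps27 at 24 of these 90 bases and at 61 of the 255. Rps27rt (chromosome 9, 114982366 to 114982739) stood at 6.49 and 18.3 TPM, a log2 ratio to Rps27 of -1.83 ± 0.85. Its replicates differed by 2.83-fold, the largest ratio of any of the 86 genes, while the counts of Rps27l were whole numbers. Reads of the shared stretch cannot be told apart by sequence, so the split between Rps27 and Rps27rt is uncertain. The listed Rps27 transcript is 255 bases long, the length of its coding sequence, against 370 bases for Rps27rt, so the TPM of Rps27 rests on a short effective length. In expected counts Rps27rt stood at 109.9 and 426.6, against 311 and 489 for Rps27.

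Most genes of the family shared reads with other places. An expected count that is not whole contains reads divided among several places, and a count was called whole when it had no decimal part at the 2 decimals deposited. Counts were whole in both replicates for 8 of 81 detected genes (9.88%), against 74.0% of the 3133 detected protein-coding genes. Among the canonical genes with whole counts were Rpl22, Rpl23, Rpl32, Rps9, Rps20 and Rps21. These 8 genes had a median of 3 pseudogene copies (1 to 7), against 11 copies (0 to 88) for the other 73, a copy being a pseudogene that aligned to a transcript of the gene at 80% identity or more over at least 50% of its own length. Rpl7a, with 88, had the most. By this match 1201 pseudogenes belonged to the family. Of these, 951 had 0 counts in both replicates and 47 were detected, and together they held 378 and 488 TPM, 19.0% and 20.5% of the level of the 86 genes. Matched by symbol alone there were 249, of which 22 were detected, with 133 and 200 TPM (6.70% and 8.40%).

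Several of the lowest canonical genes had abundant copies. In TPM, copies exceeded the gene in both replicates for 4 genes, Rpl5, Rpl27, Rpl27a and Rpl38. Of these 4, copies also exceeded the gene in expected counts in both replicates for Rpl5 and Rpl27. The copies of Rpl38 held 109 and 114 counts, against 134 and 306 for the gene. Those of Rpl27a held 445 counts in replicate 1, against 515 for the gene. For Rpl5, a single pseudogene, Gm15500 (chr7:114705217-114706235, minus strand), matched it at 100% over 1018 bases and held 1197 and 2979 counts, against 1148 and 1010 counts for Rpl5. In TPM Gm15500 stood at 19.7 and 33.5. The opening 90 coding bases of Rpl5, which Gm15500 shares letter for letter, show what a read from either place would look like.
Rpl5: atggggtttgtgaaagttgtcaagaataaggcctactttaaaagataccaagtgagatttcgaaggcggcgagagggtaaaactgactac
Rpl5 with its copies stood at 28.8 and 38.7 TPM, which moved it from rank 75 to rank 34 of the 77 canonical genes when copies were added for every gene. The gene alone was 0.575 times as high in replicate 2 as in replicate 1, and gene and copies together 1.35 times.

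Rpl27, which was lowest, and Rpl27a behaved in a like way. Rpl27 with its copies, among them Rpl27-ps3 at 4.26 and 16.7 TPM, stood at 23.4 TPM in each replicate, although the gene alone was 0.449 times as high in replicate 2 as in replicate 1. Rpl27a with its copies stood at 27.0 and 39.5 TPM, of which Gm7536 held 19.6 and 32.6 TPM. Rpl38, a regulator of Hox mRNA translation in the mouse embryo, stood alone at 8.50 and 14.7 TPM and with its copies at 26.9 and 30.3 TPM. The copies of Rpl37 held 5.12 and 10.6 TPM, above the gene itself in replicate 2, and gene and copies together stood at 12.6 and 17.6 TPM. Rpl35, also low, had little TPM in copies. Genes with higher TPM had such copies too. Rps23-ps1 held 17.6 and 39.1 TPM, against 19.8 and 19.6 TPM for Rps23, and Rpl31-ps8 held 13.2 and 34.2 TPM. In expected counts Rps23 stood at 883 and 1255, against 1148 and 1010 for Rpl5, whose effective length was 1782 and 1852 bases. Over all canonical genes, adding copies raised the median to 31.6 TPM and lowered the SD of log2 mean TPM to 0.59, an alternative chosen after seeing the data, against 25.5 TPM and 0.76 for the genes alone. Transcription of the gene and of its copy cannot be told apart in reads that match both.

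**Figure D3:**
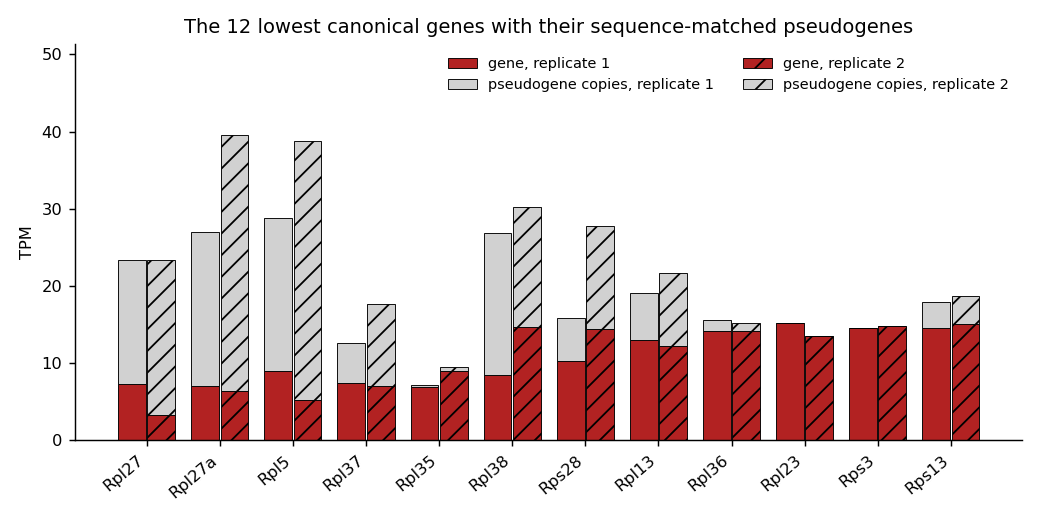
TPM of the 12 canonical genes with the lowest mean (red) with the summed TPM of their sequence-matched pseudogenes stacked on top (grey), unhatched for replicate 1 and hatched for replicate 2. The copies exceed the gene for Rpl27, Rpl27a, Rpl5 and Rpl38, while Rpl35, Rpl36, Rpl23 and Rps3 carry little or nothing from copies.

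The replicates ranked the canonical genes alike, with Pearson's r of 0.935 for log2 TPM and Spearman's rho of 0.940 across the 77 genes. Of the 83 genes that averaged 10 or more expected counts, 68 were higher in replicate 2 and 15 in replicate 1, while 55.9% of the 10244 protein-coding genes with such a mean were higher in replicate 2. All but 1 of the 83 averaged 100 or more counts, and of protein-coding genes with that mean 59.8% were higher in replicate 2. The median log2 ratio of replicate 2 over replicate 1 was 0.25, against 0.10 for protein-coding genes with a mean of at least 10 counts. Scaling TPM to nuclear protein-coding genes lowered every ratio by 0.12, to a median of 0.12 for the family, with 54 genes higher and 29 lower in replicate 2. For the 10244 protein-coding genes with a mean of at least 10 counts the median became -0.02, with 5034 higher and 5210 lower. The median absolute deviation of the ratios was 0.21 for the family and 0.34 for protein-coding genes with a mean of at least 100 counts.

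At 1.5-fold, 9 of the 83 genes (10.8%) were higher in replicate 2, against 27.8% of protein-coding genes, and 2 (2.41%) were lower, against 19.9%. Among protein-coding genes with a mean of at least 100 counts the shares were 20.4% higher and 9.98% lower. After the scaling to nuclear protein-coding genes 3 members (3.61%) were higher and 2 lower, against 23.5% of protein-coding genes in each direction, or 15.3% higher and 13.6% lower with a mean of at least 100 counts. Rps27rt led, followed by Rpl38 at 1.73-fold, Rps20 at 1.70-fold (29.8 TPM in replicate 2 and 17.5 TPM in replicate 1), Rpl29 at 1.55-fold (36.4 TPM in replicate 2 and 23.4 TPM in replicate 1) and Rpl12 at 1.54-fold (22.6 TPM in replicate 2 and 14.7 TPM in replicate 1). The pair that was lower in replicate 2 by this measure was Rpl27 and Rpl5. The next lowest ratios were small, at 0.834 for Rpl37a, 0.868 for Rpl36a and 0.880 for Rpl21. By the deposited TPM intervals, 45 of the 81 detected genes did not overlap between the replicates (55.6%), against 38.8% of detected protein-coding genes. Of the 45, 42 were higher in replicate 2 (51.9% of the 81), against 27.5% of detected protein-coding genes, 863 of the 1217 whose intervals did not overlap. The intervals cover the estimate within a library and not the spread between libraries.

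**Figure D4:**
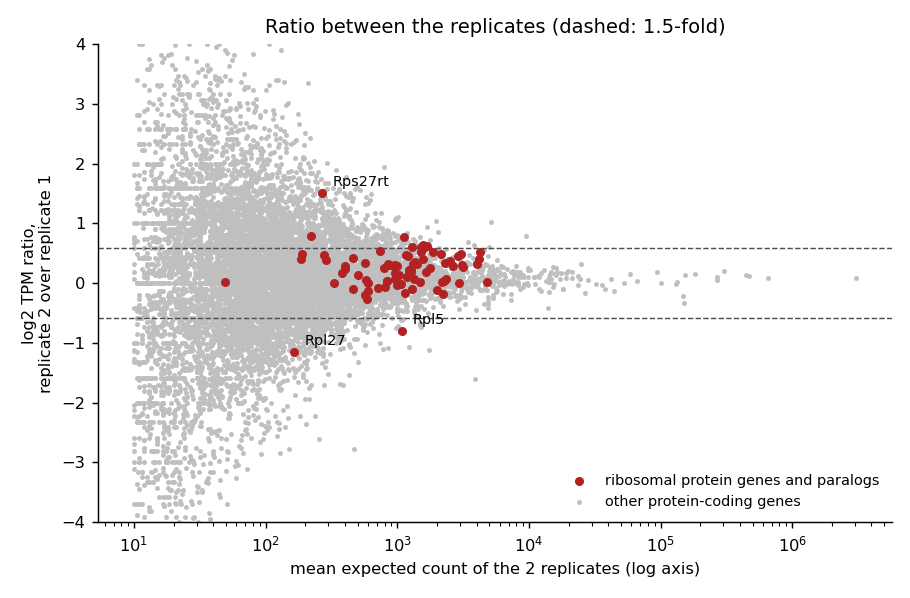
Log2 TPM ratio of replicate 2 over replicate 1 against the mean expected count (log axis) for the ribosomal protein genes and paralogs (red) and other protein-coding genes (grey) with a mean of at least 10 counts; dashed lines mark 1.5-fold, and the vertical axis stops at 4 either way. Most red points lie just above 0, with Rps27rt above them and Rpl5 and Rpl27 below the lower line.

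The tables list 376 transcripts for these genes. Transcripts annotated as protein coding held 89.5% and 87.9% of the family's TPM, against 91.6% and 90.9% for other detected protein-coding genes. Retained-intron transcripts held 6.52% and 6.83%, against 6.69% and 7.29%, and processed transcripts, which carry no annotated reading frame, 3.25% and 3.58%, against 1.23% and 1.27%. The other detected protein-coding genes included those of the mitochondrial genome, whose TPM weighs in their shares. Shares over nuclear genes alone were not computed, so these figures give no comparison with nuclear mRNAs. For 49 of the 81 detected genes a single transcript held at least 90% of the gene's TPM in both replicates. A gene with a single listed transcript, such as Rpl14, meets this by construction. The share over all detected protein-coding genes was not computed, so the count sets the family apart from no other genes.

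The leading transcript was not annotated as protein coding for 7 of 81 detected genes, or 8.64%, against 15.6% of detected protein-coding genes. Leading transcripts not in GENCODE M21, whose type is unknown, count toward both shares. Among the 7 that of Rpl13a is such a transcript. For Rps16 the retained-intron transcript Rps16-203 held 93.6% and 87.2%. For Rps20 another such transcript, Rps20-201, held 48.9% and 92.6%. Processed transcripts led for Rps18 (Rps18-209, 61.3% and 70.3%), Rpl24 (Rpl24-204, 48.3% and 72.4%) and Rpl35 (Rpl35-203, 68.9% and 93.5%). Retained-intron transcripts also held 47.0% and 52.0% of the TPM of Rps2, the highest gene.

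The leader differed between the replicates for 5 of 81 genes, or 6.17%, against 19.2% of detected protein-coding genes. Rpl22l1 shifted most: the processed transcript Rpl22l1-209 held 82.7% in replicate 1 and 3.88% in replicate 2, while the coding transcript Rpl22l1-206 held 0% and 62.6%. In Rps10 the coding transcript Rps10-208 held 80.2% and 39.5%, and Rps10-202, also coding, 15.8% and 50.7%. For Rpl27, Rpl27-203 held 53.4% of a low total in replicate 1 and 0% in replicate 2. Rpl30 was split nearly evenly between Rpl30-206 (44.4% and 55.6%) and Rpl30-201 (46.9% and 42.5%). Rpl13a was divided between Rpl13a-201 (58.4% and 28.8%) and a transcript not named in GENCODE M21 (37.7% and 66.7%). The leading transcript of Rps24, which is alternatively spliced near its 3′ end, kept its place although its share was 53.2% and 83.4%. Such shares are estimates, since reads that match several transcripts of a gene are divided among them.

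**Figure D5:**
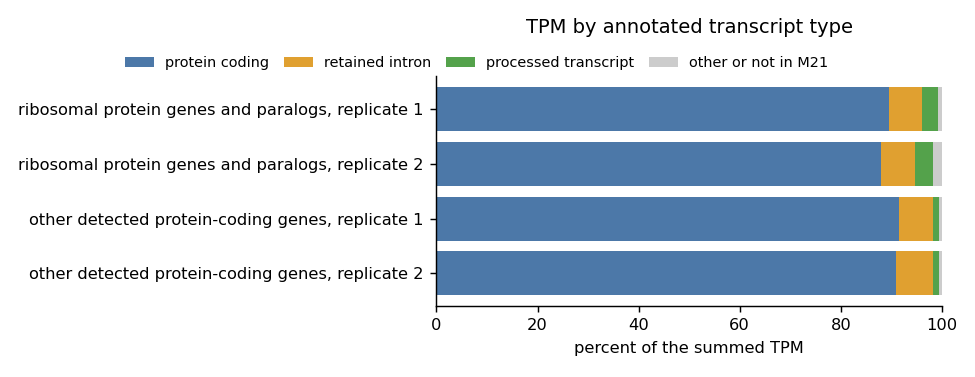
Percent of the summed TPM held by each annotated transcript type for the ribosomal protein genes and paralogs (upper bars) and the other detected protein-coding genes (lower bars), 1 bar per replicate. Coding transcripts hold 87.9% to 91.6%, and processed transcripts take a larger share in the upper bars than in the lower ones. The lower bars include the genes of the mitochondrial genome.

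The symbol rule leaves out some genes of the ribosome. Fau, whose product is a fusion of a ubiquitin-like part with a ribosomal protein, stood at 18.6 and 19.5 TPM. Rack1, a scaffold on the small subunit, stood at 29.3 and 32.8 TPM. Both lay within the range of the canonical genes, as did Rps27a, a ubiquitin fusion, at 21.5 and 29.7 TPM.

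Genes that build ribosomes were lower. Of the large subunit assembly list 5 of 13 were detected, led by Npm1, a nucleolar chaperone, at 18.4 and 22.7 TPM, with Eif6 at 2.79 and 1.06 TPM and Brix1 at 1.54 and 2.06 TPM, and Efl1 was lowest at 0.15 and 0.09 TPM. Of 9 matched small subunit assembly genes 3 were detected: the kinase gene Riok3 at 8.38 and 8.32 TPM, and the snoRNP proteins Nop56 at 5.20 and 5.27 TPM and Nop58 at 1.83 and 4.53 TPM, with Bysl lowest at 0.10 and 0.06 TPM. The list medians were 0.620 and 1.06 TPM for the large subunit and 0.720 and 0.560 TPM for the small one, against 0.03 and 0.02 TPM over all protein-coding genes. Of 8 ribosomal protein chaperones 2 were detected, Nap1l1 at 4.25 and 6.05 TPM and Bccip at 1.05 and 1.36 TPM, with Ltv1 at 0.93 and 1.82 TPM.

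Of 8 RNA polymerase I genes 2 were detected, Taf1d at 1.78 and 1.67 TPM and the subunit gene Polr1d at 1.58 and 1.55 TPM, followed by Ubtf at 1.09 and 0.99 TPM, and Polr1b was lowest at 0.05 and 0.23 TPM. Ribosome rescue genes, which free stalled ribosomes, were detected for 4 of 8. The GTPase gene Gtpbp2 led at 17.8 and 15.4 TPM, with Abce1 at 1.62 and 2.55 TPM and Hbs1l at 2.17 and 1.99 TPM and Ltn1 lowest at 0.34 and 0.22 TPM. Gtpbp2 thus reached the level of many ribosomal protein genes, while the rest of the list did not.

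Binding proteins of the oligopyrimidine tract and their relatives were detected for 3 of 4 genes, with Larp1b at 1.67 and 2.55 TPM, Larp4b at 1.55 and 2.34 TPM and Larp1 at 1.51 and 1.25 TPM, and Larp4 lowest at 0.85 and 0.90 TPM. Of the p53 branch of the ribosomal stress response, Trp53 stood at 2.72 and 2.32 TPM, Mdm4 at 1.83 and 2.88 TPM and Mdm2, which Rpl5 and Rpl11 bind, at 1.86 and 1.55 TPM. The p53 target Cdkn1a stood at 0.03 and 0.24 TPM from 4 and 45 counts.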

How the data were processed

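Total RNA-seq of 2 erythroblast libraries was deposited as a gene table and a transcript table each. Per the deposited read-me, these were quantified on mm10 with GENCODE M4. The sources used here do not give the aligner, the quantifier or any use of strand in counting. The authors' expected counts divide reads that match several places. The deposited TPM values sum over every row of a table, as scaled by the authors, and the deposited posterior mean TPM and FPKM values served as alternatives. The deposited TPM interval bounds were used as a score, and the deposited percent of a gene's TPM per transcript gave transcript shares.

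Identifiers without versions were matched to GENCODE M21, and 27229 rows without a match, spike-ins included, were left out. Counts were rounded to whole numbers for TMM factors (edgeR 4.0.16) and size factors (DESeq2 1.42.0). Transcripts of pseudogenes were aligned to those of the genes with BLAST 2.17.0. Ratios took genes with a mean of at least 10 counts. The ratio calculation was tested on simulated counts. The members and lists, and the rule for named genes, were chosen with earlier results of these data known. The rule named detected paralogs, Diamond-Blackfan and stalk genes, Rpsa, and the 6 highest and 4 lowest genes per subunit. Named too were the 5 largest replicate ratios each way, and genes whose leading transcript changed or was not annotated as protein coding. It also named the 3 highest genes and the lowest gene of each other list. Genes named beside these were chosen after their values were seen. Some genes that the rule names are left unreported here.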

Additional observations from a re-analysis of the deposited data

How the results depend on the processing

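Of 41 comparisons with another setting that keep both replicates, 31 left the result within its error, or a count within 1.5 times. For the median log2 ratio between the replicates, the error was the median absolute deviation over genes, 0.21, and not an SD of libraries. That ratio was 0.11 with TMM factors and 0.15 with DESeq2 size factors, against 0.25 in TPM, and both count as within this wide error. TPM rescaled to nuclear protein-coding genes gave a canonical median of 521 TPM, by construction, and 5 genes past 1.5-fold between the replicates. A 2-fold threshold left 2 such genes. Expected counts without length correction turned the log2 ratio of large over small subunit to 0.047 and moved that of Diamond-Blackfan over other genes to -0.49; the cause was not tested. Adding sequence-matched pseudogenes, chosen after seeing the data, gave a canonical median of 31.6 TPM, log2 ratios of -0.087 (large over small) and -0.00998 (Diamond-Blackfan over other) and an SD of 0.59, and matching pseudogenes by sequence gave 19.7% of the family's TPM. Of 15 alternatives for the paralog ratios that keep both replicates, 12 stayed within the error. With 2 libraries, leaving out either one gives the value of the other, and for a mean of both this cannot lie beyond the SD, so it says nothing about stability. No paired analysis was possible because the design has 1 group.

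With 2 libraries an SD rests on 2 values. Depth limits the silent paralogs, where up to 3 counts cannot be told from 0. Reads shared with near-identical copies limit the values of Rpl5, Rpl27, Rpl27a, Rpl38 and Rps27rt, and Rpl27, Rpl38 and Rps27rt are low in counts as well. Other genes with abundant copies are limited too, among them Rps23, Rps29, Rpl31, Rpl37 and Rpl10a. The level of the deposited intervals is unknown.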

Other observations

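A further 6 genes carry paralog-like names but are annotated as pseudogenes, so the rule left them out. Rpl37rt stood at 5.12 and 9.38 TPM and Rps12l1 at 2.91 and 7.47 TPM. Rps3a2 stood at 1.08 and 2.00 TPM, Rpl6l at 0.39 and 0.85 TPM, Rps4l at 0.21 and 0.15 TPM and Rps3a3 at 0.08 and 0.04 TPM. All but Rps4l had expected counts that were not whole, whereas Rps4l held 12 and 13 counts.

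Introns of ribosomal protein genes house many small nucleolar RNAs, which guide chemical changes of ribosomal RNA. The annotation places 58 of them inside 30 of the genes, on the same strand. In 56 the effective length was under 30 bases in both replicates, and 47 had 0 counts in both, so their TPM is barely measured here. The 4 with at least 10 counts in both were Snora64 in Rps2 (128 and 180 counts), Snord15b in Rps3 (65.9 and 104 counts), Snord15a in Rps3 (39 and 35 counts) and Gm24888 in Rpl27a (40 and 16 counts).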
